A study of Homo sapiens with 16 samples.

Results

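The proteins of the mitochondrial ribosome were described at the RNA level through every table entry whose symbol is MRPL or MRPS followed by a number and, where present, the letter A, B or C, with pseudogenes left out. This gave 78 entries for 76 symbols out of 57820 entries in the table, because MRPL30 and MRPS17 each have 2 entries that differ in their Ensembl identifier. By the published structures of the mammalian ribosome, 50 of the entries code for proteins of the large subunit and 27 for proteins of the small subunit. MRPS36 is counted in neither, since its protein is now known as a component of the 2-oxoglutarate dehydrogenase complex.

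RNA was sequenced from 3 established human cell lines, CUTLL1, KOPTK1 and HpbALL, all derived from T-cell acute lymphoblastic leukaemia, after targeting of a long non-coding RNA named lnrCXCR4. The targeted libraries came from cells infected with lentivirus that carried CRISPR components and a guide, or from cells given an antisense oligonucleotide (ASO) at 1 uM in the medium. Titles number the targeted libraries by guide or ASO and descriptions by replicate, so whether the 2 of a group used different sequences is not settled. Guide controls carried a non-targeting guide and ASO controls received a scrambled oligonucleotide at the same dose. In CUTLL1 and in KOPTK1 each delivery gave 2 targeted libraries and 1 control, and in HpbALL guides alone gave 2 targeted libraries and 2 controls. That makes 5 experiments with 10 targeted and 6 control libraries. The form of Cas9, any selection or cloning of infected cells and the time to harvest were left unstated by the labels. The labels do not say whether libraries of a group are separate cultures. The p-values therefore speak only to the spread among these libraries, part of which may be technical.

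Mitochondrial ribosomes translate the few messenger RNAs encoded by mitochondrial DNA, which all code for subunits of the respiratory chain and ATP synthase. Every protein of these ribosomes is encoded in the nucleus, made in the cytosol and imported, whereas both ribosomal RNAs come from mitochondrial DNA. The small subunit decodes the messenger and the large subunit joins the amino acids. Many of the proteins have bacterial homologues, and others are known only from mitochondria.

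Values are normalised read counts, and each library rests on 36427450 to 58929718 recovered reads in the targeted libraries and 34547469 to 72178929 in the controls. No entry of the table is named for the targeted RNA, so its own level does not check the labels. The distance between 2 libraries was a chi-square statistic of their reads averaged over genes, where 1 means counting noise alone. Targeted and control libraries of a line lay 168 to 305 apart. Guide and ASO libraries of the same line and arm lay 1.73 to 14.5 apart, and libraries of the same group 2.34 to 6.75 apart. The 14.5 was the second KOPTK1 guide library against the first KOPTK1 ASO library, and the other guide and ASO pairs lay at most 6.35 apart, within the largest distance between replicates. Counts of calls that pool guide and ASO libraries of a line are therefore also given with each line and arm counted once. The T-lineage markers CD3D, CD3E, CD3G, CD247, CD7, CD5 and PTCRA were detected in all 16 libraries. Their sum was 54533 to 62129 in targeted libraries and 91532 to 106089 in controls, and 6 of the 7 fell in the joint comparison. The part of this in the members' values was not tested. The summed B-lineage markers were at 125 to 405 in targeted libraries and 322 to 2008 in controls, mostly from CD79A, with MS4A1 at 0 in 15 libraries. Myeloid markers summed to at most 36.7 and erythroid markers to at most 14.3. Epithelial and fibroblast markers summed to 2.31 to 702 in targeted libraries and 3.96 to 25.3 in controls, with KRT19 at 0 in 16 libraries. The value of 702 was in the first KOPTK1 guide library, from the collagen genes COL1A1 and COL1A2. Without that library the counts of members that rose and fell in the joint comparison were the same 10 and 56 as with it.

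The RNA of the mitochondrial ribosomal proteins made up a smaller share of all counts in every targeted library than in every control. In CUTLL1 the share was 0.381% ± 0.0043 in targeted libraries (SD, n = 4) and 0.490% ± 0.0056 in controls (SD, n = 2). In KOPTK1 it was 0.385% ± 0.0082 in targeted libraries (SD, n = 4) and 0.493% ± 0.0035 in controls (SD, n = 2). In HpbALL it was 0.377% ± 0.0036 in targeted libraries and 0.469% ± 0.0047 in controls (SD, n = 2 each). Targeted libraries of the 3 lines thus lay within 0.374% to 0.391%, and controls within 0.466% to 0.495%, without overlap. Genes of the large subunit took 0.231% to 0.247% in targeted libraries and 0.298% to 0.315% in controls. Genes of the small subunit took 0.135% to 0.148% in targeted libraries and 0.165% to 0.184% in controls. Both subunits were lower, again without overlap. In these bulk samples, fewer cells of a type and less RNA per cell cannot be told apart.

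The shares of cytosolic ribosomal protein, mitochondrially encoded and histone genes did not follow the same direction. Lists closer to the members, such as assembly and translation factors of the mitochondrial ribosome, had negative medians in the joint comparison, as given below. Cytosolic ribosomal protein genes took 3.49% to 4.04% of counts in targeted libraries and 3.38% to 3.56% in controls, ranges that overlap. Within KOPTK1 and within HpbALL every targeted library was higher than every control, while in CUTLL1 the arms overlapped. The mitochondrially encoded genes, taken here as all entries with a symbol starting MT-, took 2.46% to 3.25% in targeted libraries and 1.84% to 2.48% in controls. Within each line every targeted library was higher. Replication-dependent histone genes, whose messengers mostly lack a poly(A) tail, took 0.00479% to 0.0214% in targeted libraries and 0.00269% to 0.00533% in controls. The part of these shares in the members' values was not tested.

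**Figure D1:**
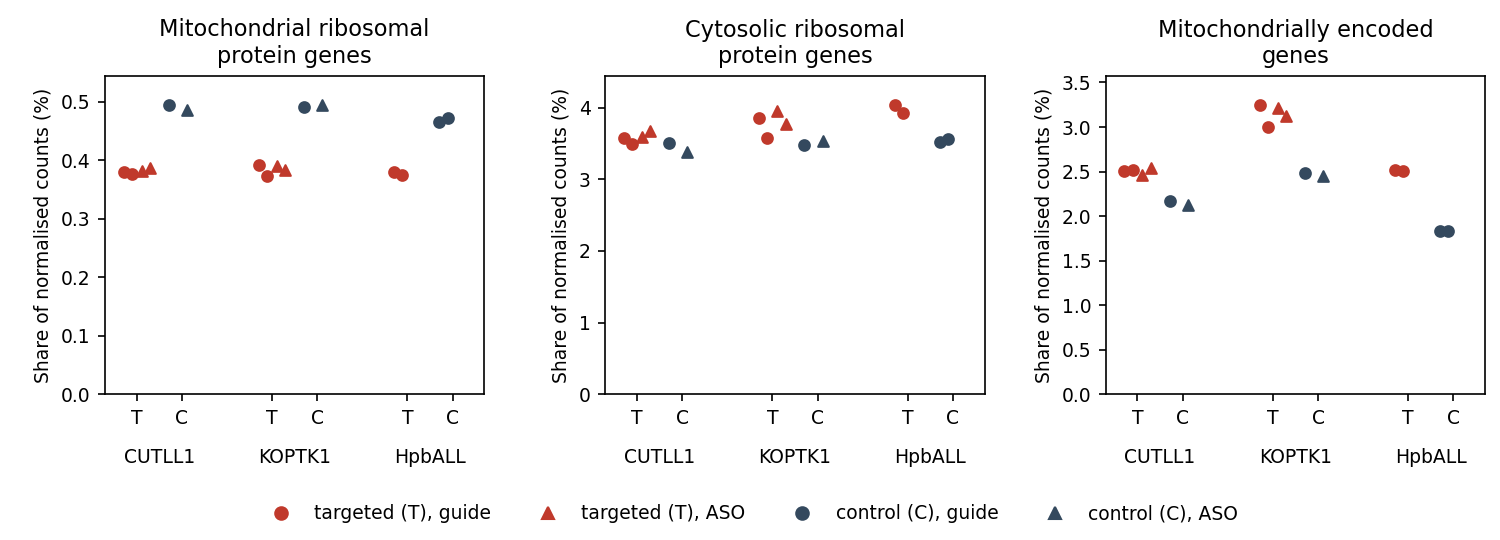
Share of all normalised counts, in percent, taken by 3 gene groups in each of the 16 libraries (circles guides, triangles ASOs), with targeted libraries (T, red) left of controls (C, blue) in each line. Mitochondrial ribosomal protein genes sit at 0.374% to 0.391% in targeted libraries and 0.466% to 0.495% in controls, while the mitochondrially encoded genes are higher in the targeted libraries of each line.

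The joint comparison asks how each member responded to targeting over all 16 libraries. Of 75 entries with a mean of at least 20 normalised counts, 56 fell and 10 rose, and 9 did not pass the threshold of an adjusted p of 0.05 in limma. Calls were common in these data: 38.8% of 14020 tested genes fell and 36.2% rose. The members' median log2 fold change of targeted over control was -0.26, against -0.03 for all tested genes, with 39 of the 48 tested large-subunit entries lower and 5 higher and 17 of the 26 small-subunit entries lower and 4 higher. The medians were -0.26 for the large and -0.38 for the small subunit. Among 46 entries with a bacterial homologue 36 fell and 4 rose, with a median of -0.30, and among 28 known only from mitochondria 20 fell and 5 rose, with a median of -0.26. Whether these subgroups differ was not tested.

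Changes were moderate in size. Only MRPL24, MRPL3 and MRPL15 fell by more than 2-fold, 3 of 75 members where 11.5% of all tested genes did, and 0 members rose by more than 2-fold, against 3.69% of all genes. In 51 members every targeted library lay below the control mean of its own experiment (29.7% of all genes), and in 7 every one lay above it (28.6%). In 50 members every targeted library lay below every control in each of the 3 lines (28.1% of all genes), and in 7 above (27%). With each line and arm counted once, so that guide and ASO libraries of a line give 1 value, 41 members fell and 5 rose, where 25.9% of 14051 genes fell and 23.7% rose. The 5 were MRPS6, MRPL41, MRPS36, MRPL10 and MRPS31. Counted this way, 26 large-subunit entries fell and 2 rose, and 15 small-subunit entries fell and 2 rose. Among entries with a bacterial homologue 25 fell and 2 rose, and among those known only from mitochondria 16 fell and 2 rose. Adjusted p of joint changes below come from the limma fit of all 16 libraries unless stated. For MRPS15 it was 3.45e-12 in that fit and 0.00131 with each line and arm counted once.

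**Figure D2:**
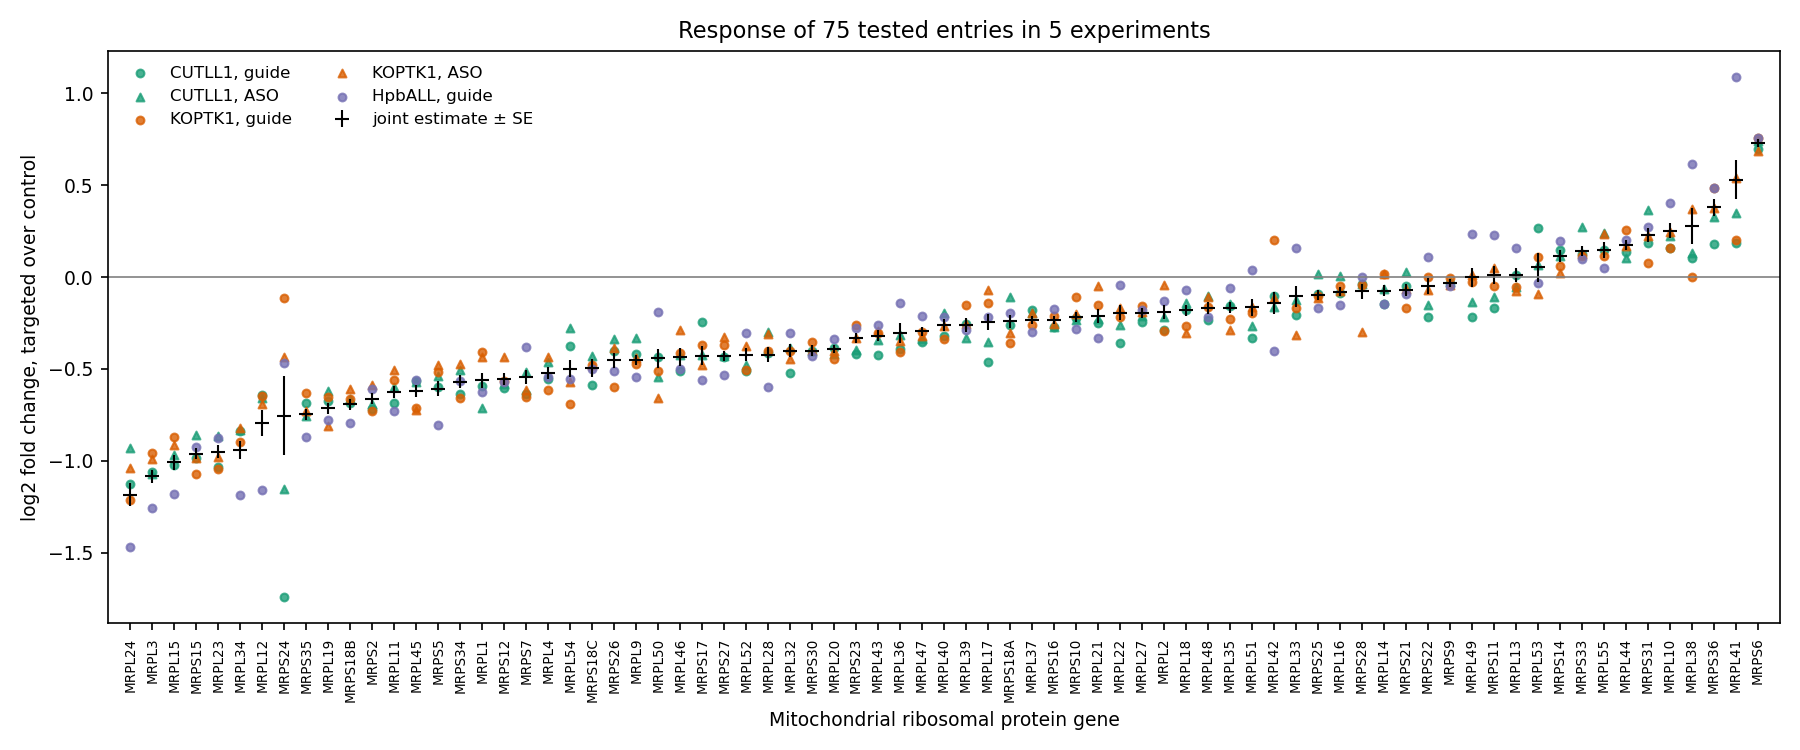
Log2 fold change of targeted over control for the 75 tested entries, ordered by the joint estimate (black, ± SE), with the 5 single experiments as coloured points (circles guides, triangles ASOs). Most members lie below 0 in all experiments, from MRPL24 at -1.18 on the left to MRPS6 at 0.73 on the right.

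Among large-subunit proteins with bacterial homologues, MRPL24 fell furthest. It had 1274 and 1186 normalised counts with guides and 1323 and 1334 with ASOs in CUTLL1, against 2679 and 2533 in the CUTLL1 guide and ASO controls. In KOPTK1 it had 918 and 809 with guides and 890 and 853 with ASOs, against 2001 and 1792 in the guide and ASO controls. In HpbALL it had 985 and 980 with guides and 2795 and 2656 in the controls. Every targeted library was below every control of any line, and the joint log2 fold change was -1.18 (SE 0.063, adjusted p 6.71e-10).

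MRPL3, homologous to a protein that reaches towards the peptidyl transferase centre of the bacterial ribosome, fell next furthest. It had 3539 and 3697 normalised counts with guides and 3463 and 3677 with ASOs in CUTLL1, against 7556 and 7502 in the guide and ASO controls. The KOPTK1 libraries had 3578 and 3424 with guides and 3487 and 3472 with ASOs, against 6801 and 6899 in the controls. HpbALL libraries had 3522 and 3571 with guides, against 8381 and 8591 in the controls. All 10 targeted libraries fell within 3424 to 3697 although the controls of the lines ran from 6801 to 8591, and the joint log2 fold change was -1.08 (SE 0.038, adjusted p 1.19e-11).

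MRPL12 codes for the stalk protein that contacts translation factors, and its product is also known to bind the mitochondrial RNA polymerase. It had 831 and 802 normalised counts with guides and 849 and 847 with ASOs in CUTLL1, against 1273 and 1339 in the guide and ASO controls. KOPTK1 cells had 1573 and 1497 with guides and 1557 and 1479 with ASOs, against 2400 and 2447 in the controls. HpbALL cells had 603 and 514 with guides, against 1214 and 1276 in the controls. Within each line the arms did not overlap, but KOPTK1 targeted libraries were above the controls of the other lines. The joint log2 fold change was -0.79 (SE 0.071, adjusted p 1.5e-07).

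The other large-subunit genes with the largest falls were MRPL15, MRPL23, MRPL34 and MRPL19, all with bacterial homologues. MRPL15 ranged from 1449 to 2574 in targeted libraries (median 1649, n = 10) and from 3121 to 4769 in controls (median 3333, n = 6). MRPL23 ranged from 1292 to 1833 in targeted libraries (median 1648) and from 2493 to 3567 in controls (median 3202). MRPL34 ranged from 1221 to 1822 in targeted libraries (median 1644) and from 2774 to 3156 in controls (median 2917). In all 3 of these genes the arms did not overlap across lines. MRPL19 did not overlap either, with 1727 to 2120 in targeted libraries (median 1880) and 2908 to 3335 in controls (median 3170). Their joint log2 fold changes were -1.01 for MRPL15 (SE 0.040), -0.95 for MRPL23 (SE 0.035), -0.94 for MRPL34 (SE 0.049) and -0.71 for MRPL19 (SE 0.030), with adjusted p of at most 5.7e-10.

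In the small subunit, MRPS15, a homologue of a bacterial protein that binds the small ribosomal RNA early in assembly, fell furthest. It had 3147 and 3167 normalised counts with guides and 3248 and 3336 with ASOs in CUTLL1, against 6237 and 5979 in the guide and ASO controls. For KOPTK1 the counts were 2817 and 2654 with guides and 2660 and 2861 with ASOs, against 5741 and 5462 in the controls. In HpbALL it had 2702 and 2691 with guides, against 5148 and 5106 in the controls. Every targeted library was below every control of any line. The joint log2 fold change was -0.96 (SE 0.029, adjusted p 3.45e-12).

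MRPS35, known only from mitochondria, fell by 0.75 on the log2 scale (SE 0.031, adjusted p 5.51e-11), with 2327 to 2508 in targeted libraries (median 2459) and 3858 to 4349 in controls (median 4089). MRPS24 also passed, at -0.75, but its counts were low and its SE was 0.215 (adjusted p 0.00581). It ranged from 10.4 to 30.8 in targeted libraries (median 22.2) and from 16.2 to 50.7 in controls (median 33.1), so the arms overlapped across lines. Of the single experiments, those in CUTLL1 passed, at -1.74 with guides (adjusted p 0.00191) and -1.16 with ASOs (adjusted p 0.0206), while the values in KOPTK1 and HpbALL ran from -0.11 to -0.47 and did not pass. Counted once per line and arm, MRPS24 did not pass (adjusted p 0.116), and neither did it with quantile scaling. A read-through entry that joins MRPS24 to its neighbour URGCP was listed at 0 in all 16 libraries.

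The 3 paralogues of the bacterial S18 protein occupy different places in the ribosome, and all fell. MRPS18B, in the small subunit, had 2702 to 2939 normalised counts in targeted libraries (median 2874) and 4392 to 5010 in controls (median 4619), with a joint log2 fold change of -0.69 (SE 0.029). MRPS18C, which holds the bacterial place in the small subunit, had 767 to 1091 in targeted libraries (median 873) and 1079 to 1616 in controls (median 1304), at -0.49 (SE 0.047). MRPS18A, which sits in the large subunit despite its symbol, had 1538 to 1868 in targeted libraries (median 1696) and 1689 to 2243 in controls (median 2002), at -0.24 (SE 0.036). MRPS18B did not overlap between the arms, whereas MRPS18C and MRPS18A overlapped across lines. MRPS30, likewise a large-subunit protein with an S symbol, was at -0.40 (SE 0.030), and adjusted p was at most 3.07e-05 for all 4.

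A smaller number of members rose, and MRPS6, homologous to a small-subunit protein of bacteria, rose most. It had 6085 and 6017 normalised counts with guides and 6166 and 6266 with ASOs in CUTLL1, against 3726 and 3723 in the guide and ASO controls. KOPTK1 libraries held 7080 and 6780 with guides and 6733 and 6737 with ASOs, against 4101 and 4193 in the controls. HpbALL libraries held 6000 and 5899 with guides, against 3464 and 3588 in the controls. Every targeted library was above every control of any line, and the joint log2 fold change was 0.73 (SE 0.021, adjusted p 2.01e-12). In RefSeq, MRPS6 and the transporter gene SLC5A3 begin at the same base of chromosome 21 and overlap. Both SLC5A3 entries were listed at 0 in all 16 libraries, so which of the 2 genes the counted reads belong to is uncertain.

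MRPL41, a large-subunit protein known only from mitochondria, rose by different amounts in the lines. It had 1761 and 1539 normalised counts with guides and 1870 and 1855 with ASOs in CUTLL1, against 1445 and 1460 in the guide and ASO controls. In KOPTK1 it had 1126 and 1063 with guides and 1255 and 1312 with ASOs, against 950 and 883 in the controls. In HpbALL it had 862 and 753 with guides, against 370 and 386 in the controls. Within each line all targeted libraries were higher, but HpbALL targeted libraries were below the CUTLL1 controls. The joint log2 fold change was 0.53 (SE 0.107, adjusted p 0.000436).

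The other members that rose in all 10 targeted libraries were MRPS36 at 0.38 (SE 0.046), MRPL10, a homologue of the bacterial protein at the base of the stalk, at 0.25 (SE 0.041), and MRPS31 at 0.23 (SE 0.040). MRPL44, whose product has a fold like that of ribonuclease III, was at 0.18 (SE 0.028), and MRPS33 at 0.14 (SE 0.028). MRPS36 had 1108 to 1424 normalised counts in targeted libraries (median 1246) and 913 to 1029 in controls (median 984), without overlap, and its adjusted p was 3.83e-06. MRPL10 had 2161 to 2916 in targeted libraries (median 2415) and 1949 to 2166 in controls (median 2112), with a narrow overlap. MRPS14, MRPL55 and MRPL38 also rose, by 0.12, 0.15 and 0.28, but with 9, 8 and 9 of 10 targeted libraries above their control mean. Counted once per line and arm, MRPL44 (adjusted p 0.0752), MRPS33 (adjusted p 0.126), MRPL38 (adjusted p 0.146), MRPL55 (adjusted p 0.159) and MRPS14 (adjusted p 0.203) did not pass. MRPL38 did not pass either when the control library of the KOPTK1 ASO experiment was left out (adjusted p 0.0505).

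**Figure D3:**
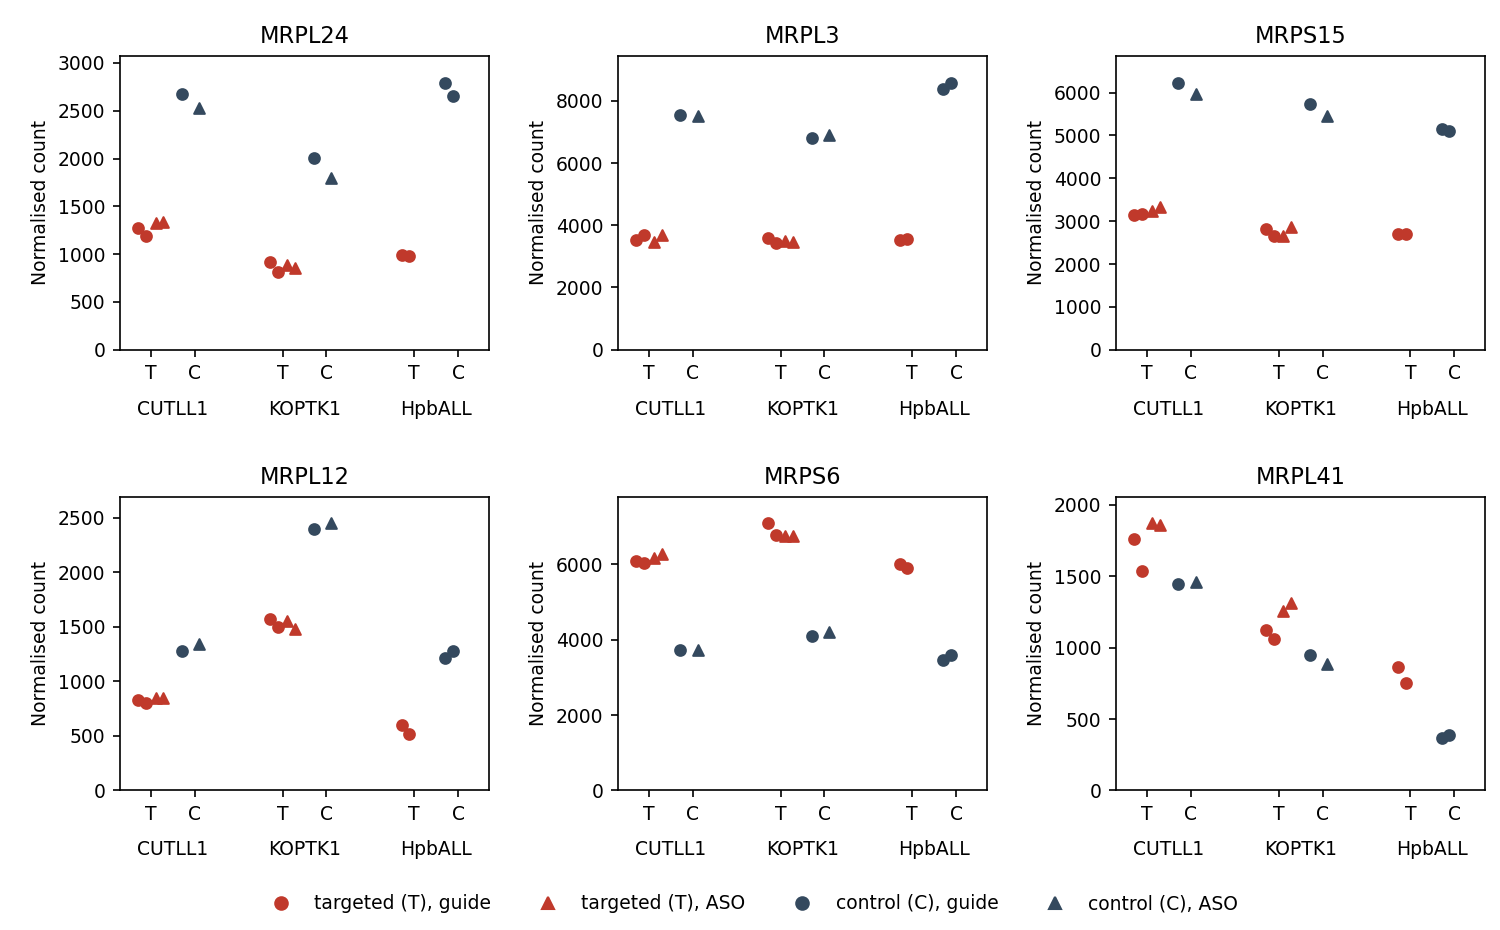
Normalised counts of 6 members in each of the 16 libraries (circles guides, triangles ASOs), with targeted libraries (T, red) left of controls (C, blue) in each line and axes starting at 0. MRPL24, MRPL3, MRPS15 and MRPL12 are lower and MRPS6 and MRPL41 higher in the targeted libraries of every line, with MRPL3 at 3424 to 3697 in all 10 targeted libraries.

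Of the 9 tested members that passed in neither direction, MRPL49, MRPS11 and MRPL13 were nearest to no difference, at -0.0019, 0.01 and 0.01 (SE 0.050, 0.049 and 0.038). MRPS9, MRPS22, MRPS21, MRPS28 and MRPL33 had negative values of -0.03 to -0.10, and the low MRPL53 was at 0.05 (SE 0.078). The bare MRPL30 and MRPS17 symbols cover 3 entries too low to test. One MRPL30 entry (ENSG00000185414.15) had 0.876 to 7.39 normalised counts in targeted libraries and 0.976 to 2.91 in controls. The other (ENSG00000273155.1) was at 0 in all but 1 targeted library and 1 control, and the second MRPS17 entry (ENSG00000249773.3) was at 0 in all targeted libraries and reached 3.96 in a control. The measured MRPS17 entry (ENSG00000239789.1) fell by 0.43 on the log2 scale (SE 0.051, adjusted p 2.91e-06). Among the pseudogene entries left out, MRPS31P5 and MRPL45P2 had the highest means, 51.7 and 44.8 normalised counts, and the means of MRPS31 and MRPL45 were 1728 and 1902.

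The promoters of members that moved together were set side by side. RefSeq promoters of build GRCh38.p14, from 250 bases before to 50 after the annotated start, were matched for 67 of the 76 symbols. The letters of 5 known motifs were searched on both strands, and shares are given over members and over all 27305 promoters of the table. The letters AAGATGGC, bound by YY1, stood in 29.9% of member promoters and 3.03% of all promoters. The letters CCGGAAG, bound by ETS factors such as GABP, stood in 41.8% and 10.7%, and GGGCGG, bound by SP1, in 61.2% and 44.6%. The E-box CACGTG, bound by MYC among others, stood in 8.96% and 7.43%, and the NRF1 motif in 1.49% and 1.36%. The median GC content was 60.3% over member promoters and 58.3% over all. A match describes letters in this window and does not show binding.

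Among members that fell, 19 of 51 promoters held the YY1 letters, against 1 of 8 among those that rose and 0 of 7 among those that passed in neither direction. In 15 of the 20 promoters with these letters they began within the first 50 bases from the start. The SP1 letters were in 8 of 8 promoters of members that rose and 30 of 51 of those that fell. Of the 8 members that rose here, MRPL44, MRPS33, MRPL38, MRPL55 and MRPS14 did not pass when counted once per line and arm. Of the 19 that fell and held the YY1 letters, MRPL22, MRPL36, MRPL42, MRPL51 and MRPS24 did not pass in that count. Their adjusted p by limma were 0.113, 0.0519, 0.221, 0.184 and 0.116, and the others of the 19 passed. The differences between these groups of promoters were not tested. The 5 promoters below belong to the 2 members with the largest falls, to the 2 with the largest falls among those with the YY1 letters, and to the member with the largest rise. Capitals mark the exact letters searched for the 5 motifs, on either strand. MRPL24 lies at chr1:156741039-156741338 and MRPL3 at chr3:131502922-131503221, both on the minus strand, MRPS18B at chr6:30617590-30617889, MRPL45 at chr17:38296918-38297217 and MRPS6 at chr21:34073328-34073627, all on the plus strand of GRCh38.p14. Sequences read 5′ to 3′ on the strand of the gene.
MRPL24: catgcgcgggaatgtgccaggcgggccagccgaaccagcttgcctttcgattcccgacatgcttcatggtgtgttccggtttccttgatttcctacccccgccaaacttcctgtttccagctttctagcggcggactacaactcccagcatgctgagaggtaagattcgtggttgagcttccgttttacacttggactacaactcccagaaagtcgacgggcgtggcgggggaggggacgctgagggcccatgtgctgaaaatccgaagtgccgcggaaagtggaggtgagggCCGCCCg
MRPL3: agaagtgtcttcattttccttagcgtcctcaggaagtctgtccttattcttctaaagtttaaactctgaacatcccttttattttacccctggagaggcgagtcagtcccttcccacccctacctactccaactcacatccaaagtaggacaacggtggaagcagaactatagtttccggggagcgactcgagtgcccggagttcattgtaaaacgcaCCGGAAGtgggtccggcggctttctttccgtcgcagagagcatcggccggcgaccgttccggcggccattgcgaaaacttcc
MRPS18B: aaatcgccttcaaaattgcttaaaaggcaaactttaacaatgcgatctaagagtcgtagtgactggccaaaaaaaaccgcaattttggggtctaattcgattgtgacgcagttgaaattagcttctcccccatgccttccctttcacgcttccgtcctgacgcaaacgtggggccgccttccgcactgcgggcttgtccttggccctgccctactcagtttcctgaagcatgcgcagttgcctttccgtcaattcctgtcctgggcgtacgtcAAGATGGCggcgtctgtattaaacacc
MRPL45: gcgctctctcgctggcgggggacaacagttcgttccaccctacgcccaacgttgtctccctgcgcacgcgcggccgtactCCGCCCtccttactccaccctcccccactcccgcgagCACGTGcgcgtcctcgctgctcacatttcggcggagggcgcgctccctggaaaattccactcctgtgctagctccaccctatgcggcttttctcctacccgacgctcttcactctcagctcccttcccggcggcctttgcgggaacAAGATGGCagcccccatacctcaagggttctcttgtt
MRPS6: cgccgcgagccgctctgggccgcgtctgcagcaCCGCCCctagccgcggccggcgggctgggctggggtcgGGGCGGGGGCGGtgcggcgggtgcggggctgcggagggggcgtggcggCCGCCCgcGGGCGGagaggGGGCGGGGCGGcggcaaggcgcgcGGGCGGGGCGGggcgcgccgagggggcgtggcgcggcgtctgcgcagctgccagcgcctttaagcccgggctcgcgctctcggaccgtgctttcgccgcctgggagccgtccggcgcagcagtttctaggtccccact
MRPL24 holds 1 SP1 match near its start and MRPL3 a GABP match. MRPS18B and MRPL45 hold the YY1 letters just after the start, with the E-box and SP1 letters further upstream in MRPL45, and MRPS6 holds several runs of SP1 letters. MRPL45, a large-subunit protein, fell by 0.62 on the log2 scale (SE 0.034, adjusted p 8.32e-10).

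MRPL46 and MRPS11 share a promoter region on chromosome 15, where their starts lie 320 bases apart on opposite strands. MRPL46 fell, with 366 to 554 normalised counts in targeted libraries (median 490) and 477 to 719 in controls (median 695), at -0.43 (SE 0.048, adjusted p 1.57e-06). MRPS11 did not pass, at 0.01 (adjusted p 0.824). The neighbours thus gave different calls, and the difference between them was not tested.

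The guide and the ASO comparisons, each with its own control libraries, gave nearly the same counts. Guide and ASO libraries of a line mostly lay as close as replicates, so whether these comparisons are independent is not settled. With guides 53 of 75 members fell and 8 rose, where 35% of 14069 genes fell and 32.7% rose. With ASOs 51 fell and 8 rose, where 33.2% of 13712 genes fell and 31.8% rose. The medians were -0.28 with guides and -0.29 with ASOs, beside -0.03 and -0.01 for all genes. MRPL3 was at -1.12 with guides (adjusted p 1.48e-07) and -1.03 with ASOs (adjusted p 9.04e-06), and MRPS6 at 0.74 (adjusted p 8.66e-08) and 0.71 (adjusted p 1.2e-05).

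The difference between deliveries was tested in CUTLL1 and KOPTK1, which have both. Guide minus ASO was called in 0 of 75 members and in 0% of 14020 genes by limma. At an unadjusted p under 0.05 there were 8 members, and 9.94% of all genes. The smallest adjusted p of a member was 0.496, shared by MRPL42, MRPL2 and MRPL41 among others. MRPL42, a large-subunit protein known only from mitochondria, gave a guide effect above its ASO effect by 0.19 (SE 0.048). MRPL41 gave -0.25 (SE 0.093) and MRPL2, a homologue of a bacterial protein at the peptidyl transferase centre, -0.16 (SE 0.055). A p that misses the threshold does not show that the deliveries act alike.

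Each single experiment gave many more falls than rises among members. The guide and ASO experiments in CUTLL1 and KOPTK1 have 1 control library each, which is assumed to vary like the other groups. With guides, 57 fell and 4 rose in CUTLL1 (31.5% and 30.8% of all genes), 50 fell and 5 rose in KOPTK1 (33.1% and 31%), and 50 fell and 13 rose in HpbALL (36.9% and 34%). With ASOs, 53 fell and 7 rose in CUTLL1 (31.8% and 30.5%), and 49 fell and 7 rose in KOPTK1 (32.8% and 30.6%). In all 5 experiments 39 members fell, where 20.8% of all genes did, and 2, MRPS6 and MRPS33, rose, where 19.8% of all genes did. Only MRPS9 and MRPL53 passed in none of the 5 (12% of all genes). Whether the guide and ASO experiments of a line are independent is not settled, as given above. The guide effects correlated across the 75 members with r of 0.83 between CUTLL1 and KOPTK1, 0.82 between CUTLL1 and HpbALL and 0.87 between KOPTK1 and HpbALL. Over all 14020 genes the same values were 0.76, 0.70 and 0.70, given as a description, since genes of a library share its scaling.

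Whether the guide effect differed between the lines was tested over the 3 lines together. In 21 of 75 members it did, where 43.7% of all tested genes were called. In 14 of the 21 the effect was negative in all 3 lines and differed in size, in 1, MRPL41, it was positive in all 3, and in 6 the sign differed. HpbALL gave the lowest value of the 3 lines in 9 of them and the highest in 10. MRPL24 was at -1.47 in HpbALL, -1.22 in KOPTK1 and -1.12 in CUTLL1 (adjusted p 0.0259 for the difference). MRPL12 was at -1.16 in HpbALL and -0.64 in each of KOPTK1 and CUTLL1 (adjusted p 0.00299). MRPL41 was at 1.09 in HpbALL, 0.20 in KOPTK1 and 0.19 in CUTLL1 (adjusted p 0.000147).

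MRPL42 had the smallest p of this test and opposite calls. It had 3700 and 3816 normalised counts in HpbALL with guides, against 4839 and 5107 in the controls. In KOPTK1 it had 4604 and 4724 with guides, against 4051 in the control, and in CUTLL1 4368 and 4185, against 4596 in the control. HpbALL guide libraries were below and KOPTK1 guide libraries above the guide controls of their line. The KOPTK1 value rests on a lone guide control at 4051, which lay below the ASO control of that line at 4527. The guide effects were -0.40 in HpbALL (SE 0.039), 0.20 in KOPTK1 (SE 0.048) and -0.10 in CUTLL1 (SE 0.048), with an adjusted p of 7.3e-05 for the difference. In KOPTK1 the ASOs gave 4141 and 4240, against 4527 in the ASO control, so that the rise there was not seen with ASOs (-0.11, SE 0.048, adjusted p 0.0628).

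MRPL49, a large-subunit protein known only from mitochondria, also moved in opposite directions. It had 3809 and 3736 normalised counts in HpbALL with guides, against 3228 and 3176 in the controls. In KOPTK1 it had 6221 and 5829, against 6129 in the control, and in CUTLL1 3663 and 3696, against 4271. The HpbALL effect was 0.24 (SE 0.038, adjusted p 0.000163), the CUTLL1 effect -0.21 (SE 0.047, adjusted p 0.00189), and the KOPTK1 effect -0.03 did not pass. The difference had an adjusted p of 0.000438. MRPS11 was at 0.23 in HpbALL, -0.05 in KOPTK1 and -0.17 in CUTLL1 (adjusted p 0.00352 for the difference). Over the 5 experiments 4 members, MRPL42, MRPL49, MRPS11 and MRPL33, were called in both directions, where 5.8% of all genes were.

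**Figure D4:**
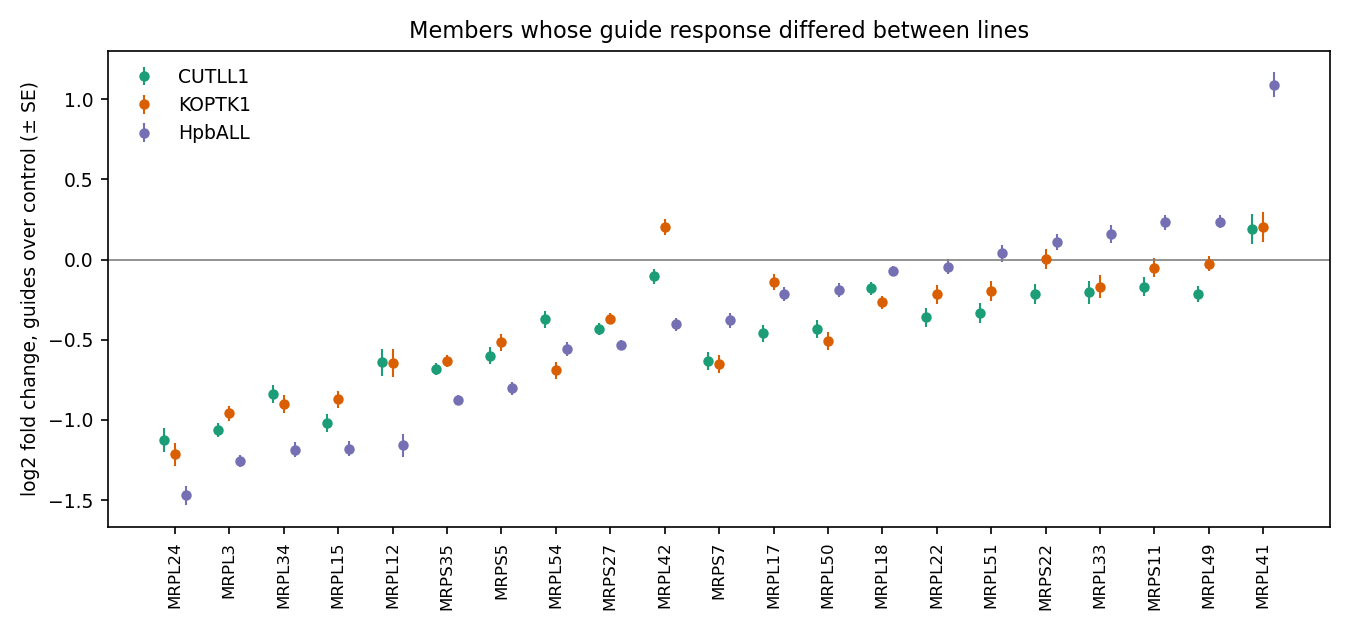
Guide effect in each line (log2 fold change of guide over control libraries, ± SE) for the 21 members whose effect differed between lines, ordered by the HpbALL value. The effect is negative in all 3 lines in 14 members, while MRPL42, MRPL49 and MRPS11 are on both sides of 0 and MRPL41 is at 1.09 in HpbALL.

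The members also differed between the lines without targeting. Over the 6 control libraries, 71 of 75 members differed between lines by limma's F test, where 92.7% of 14228 tested genes did. MRPL10, MRPL9, MRPS14 and MRPS36 did not pass. Of the 71, 23 were highest in HpbALL, 29 in KOPTK1 and 19 in CUTLL1. KOPTK1 over CUTLL1 gave 31 members higher and 27 lower (38.3% and 37.8% of all genes), HpbALL over CUTLL1 21 higher and 29 lower (40.1% and 39.3%), and HpbALL over KOPTK1 32 higher and 37 lower (39.7% and 39.9%). Guide and ASO controls of a line entered as 1 group here, and line and culture cannot be told apart.

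The 6 members with the smallest p of that test had large gaps between lines. MRPL28, a homologue of a bacterial large-subunit protein, had 1805 ± 34.0 normalised counts in HpbALL controls, 4224 ± 62.7 in KOPTK1 and 3912 ± 28.97 in CUTLL1 (SD, n = 2 each). MRPS25 had 1560 ± 61.3 in HpbALL, 4613 ± 36.2 in KOPTK1 and 3340 ± 55.5 in CUTLL1. MRPS34 had 2580 ± 161 in HpbALL, 5306 ± 79.0 in KOPTK1 and 5488 ± 70.9 in CUTLL1. These 3 were lowest in HpbALL, and the neighbours KOPTK1 and CUTLL1 did not differ for MRPS34 beyond the test (log2 difference -0.05, adjusted p 0.332). MRPL41 had 378 ± 11.1 in HpbALL, 917 ± 47.7 in KOPTK1 and 1453 ± 10.7 in CUTLL1. MRPL49 had 3202 ± 37.0 in HpbALL, 6021 ± 153 in KOPTK1 and 4220 ± 72.1 in CUTLL1. MRPS21, a homologue of a bacterial small-subunit protein, had 1533 ± 28.4 in HpbALL, 1268 ± 0.55 in KOPTK1 and 2685 ± 28.2 in CUTLL1. MRPL41 was lowest in HpbALL, MRPL49 highest in KOPTK1 and MRPS21 highest in CUTLL1.

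To compare levels between genes, control counts were divided by the median length of each gene's protein-coding transcripts. The median over the 75 symbols with a tested entry, which leaves out MRPL30, was 2762 normalised counts per kilobase. The highest were MRPL51 at 15003 ± 1521, MRPL49 at 8650 ± 2469, MRPL3 at 6854 ± 665, MRPS23 at 6592 ± 1613 and MRPL37 at 6292 ± 718 per kilobase (SD over the 6 control libraries, which include the differences between lines). The SDs of MRPL49, MRPL3, MRPS23 and MRPL37 overlap, so their order is not resolved. The lowest were MRPL30 at 1.14, MRPS24 at 47.9, MRPL38 at 122, MRPL53 at 180 and MRPS17 at 405 per kilobase. MRPL30 and MRPS17 are each split over entries, of which the one with the higher control mean was taken. MRPS24 has a read-through entry listed at 0 in all 16 libraries. How reads of overlapping entries were counted is unstated, so whether these values give the full level of the genes is not settled. With the longest transcript in place of the median, MRPL51, MRPL3 and MRPL37 stayed among the highest 5, but MRPL49 ranked 30 and MRPS23 65. In the joint comparison the log2 fold change was -1.08 for MRPL3, -0.33 for MRPS23 (SE 0.026), -0.23 for MRPL37 (SE 0.023) and -0.16 for MRPL51 (SE 0.046). These 4 fell, as did 38.8% of all tested genes and 56 of the 75 members. MRPL49, also among the highest 5, did not pass, at -0.0019 (SE 0.050, adjusted p 0.974). MRPL51 did not pass when counted once per line and arm (adjusted p 0.184).

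Genes that work with the mitochondrial ribosome were taken from lists chosen for this report. Of 7 ribosomal proteins under other symbols 5 fell and 0 rose in the joint comparison, with a median of -0.26. GADD45GIP1 was at -0.68 (SE 0.039), AURKAIP1 at -0.47 (SE 0.045) and MRP63 at -0.26 (SE 0.029), while CHCHD1 and DAP3 did not pass. Of 24 assembly factors 16 fell and 6 rose, with a median of -0.23, among them the RNA helicase genes DDX28 at -0.71 (SE 0.042) and DHX30 at -0.41 (SE 0.026) and the RNA-binding protein gene FASTKD2 at -0.62 (SE 0.035). Of 12 translation factors 7 fell and 2 rose, with a median of -0.26. The initiation factor gene MTIF2 was at -1.08 (SE 0.084), TACO1, an activator of COX1 translation, at -0.88 (SE 0.045) and the ribosome recycling factor gene MRRF at -0.64 (SE 0.046).

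Genes for mitochondrial transcription and RNA maturation fell in 15 of 21 entries and rose in 3, with a median of -0.25. TFB2M, a transcription initiation factor, was at -0.88 (SE 0.046), and the RNA degradation genes PNPT1 and SUPV3L1 were at -0.93 (SE 0.046) and -0.62 (SE 0.032). Of 17 mitochondrial aminoacyl-tRNA synthetase genes 8 fell and 4 rose, with a median of -0.06, with YARS2 at -0.67, FARS2 at -0.63 and CARS2 at -0.54. The products of mitochondrial translation join subunits encoded in the nucleus. Nuclear genes picked by symbols of the respiratory chain and of ATP synthase are called nuclear respiratory chain genes here. Of 78 tested, 29 fell and 35 rose, with a median of 0.01. All 15 mitochondrially encoded ribosomal RNA and protein genes rose, with a median of 0.33. Of 76 cytosolic ribosomal protein genes 9 fell and 40 rose, with a median of 0.09. These counts stand beside the 38.8% of all tested genes that fell and the 36.2% that rose, and the groups' differences from the members were not tested. Counted once per line and arm, 4 of the ribosomal proteins under other symbols fell and 0 rose, 11 assembly factors fell and 2 rose, 6 translation factors fell and 0 rose, and 11 transcription and RNA maturation entries fell and 0 rose. In the same count 6 aminoacyl-tRNA synthetase genes fell and 0 rose, 15 nuclear respiratory chain genes fell and 12 rose, 4 cytosolic ribosomal protein genes fell and 21 rose, and all 15 mitochondrially encoded genes rose. With quantile scaling 31 cytosolic ribosomal protein genes and 12 mitochondrially encoded genes rose, with medians of 0.06 and 0.21, and the median of the assembly factors was -0.13.

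**Figure D5:**
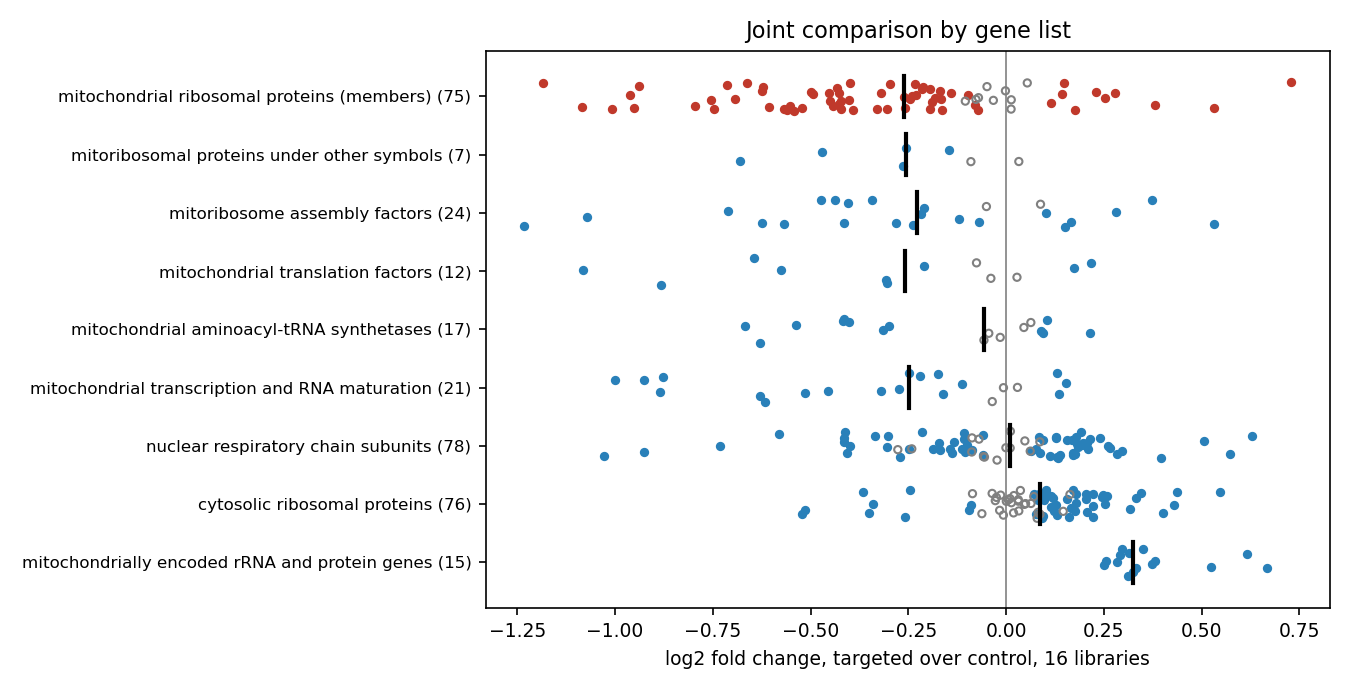
Joint log2 fold change of targeted over control for each tested gene (points, open where the adjusted p is 0.05 or more) in the members (red) and 8 other gene lists (blue), with list medians as black bars and the number of tested genes in brackets. The members and the lists for assembly, translation and transcription have medians of -0.23 to -0.26, while the cytosolic ribosomal proteins are at 0.09 and the mitochondrially encoded genes at 0.33.

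Transcription factors and coactivators known to act on nuclear genes for mitochondria were given as a list of 9. Of the 8 that could be tested 6 fell and 1 rose, beside 38.8% and 36.2% of all tested genes, and counted once per line and arm 4 fell and 1 rose. MYC was at -2.12 (SE 0.119), the coactivator genes PPARGC1B and PPRC1 at -1.25 (SE 0.075) and -1.19 (SE 0.050) and the nuclear receptor gene ESRRA at -0.67 (SE 0.046). GABPA, a subunit of the ETS factor GABP, was at -0.24 (SE 0.069), and YY1 at -0.15 (SE 0.028), and these 2 did not pass when counted once per line and arm (adjusted p 0.0583 and 0.0809). NRF1 rose by 0.42 (SE 0.042), and GABPB1 did not pass, at 0.06 (adjusted p 0.153). PPARGC1A was too low to test. Whether any of them has a part in the members' values was not tested.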

How the data were processed

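RNA of 16 libraries was analysed, grouped by line, delivery and arm from the labels. The deposited table holds 1 normalised count signal per gene and library, made by the authors as whole reads divided by 1 factor per library: 100% of values were whole multiples of the smallest nonzero value within 1e-06. STAR 1.4.2, DESeq2 and hg19 are named, without their roles, per the submitters' processing notes. The counter, annotation and use of strand in counting are nowhere stated in the labels, so overlapping and antisense genes may share reads.

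Tests used limma 3.58.1 (R 4.3.3) with an intensity trend on log2(normalised count + 1), which understates changes of low genes, on genes averaging at least 20, with Benjamini-Hochberg adjustment over all of them and a threshold of 0.05. The joint fit had experiment as a term, the guide and ASO fits cell line. Single experiments, differences between lines and guide minus ASO came from 1 fit of 10 group means. Control levels were tested over the 6 control libraries. The fits were tested on simulated counts. Alternatives were a pseudocount of 5, no filter or a mean of 100, other scalings, a replicate block, each library left out, edgeR 4.0.16 and DESeq2 1.42.0 on recovered reads (without the first CUTLL1 ASO library, whose step lies too near 1 to check), and averages by line and arm, chosen after seeing the data.

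Members, lists and tests were chosen with earlier results of these data known. Members named are up to 10 with the largest rises and up to 10 with the largest falls among calls where all 10 targeted libraries lay on 1 side, those with the smallest p in the tests over lines, deliveries and controls, the 5 highest and 5 lowest per kilobase, proteins whose place differs from their symbol, and entries too low to test. MRPL46, MRPL13, MRPL9, MRPS9, MRPS22, MRPS28, MRPL33, MRPS14, MRPL55, MRPL45, MRPL22, MRPL36 and the pseudogenes were named after their values were seen, as were CHCHD1 and DAP3. Transcript lengths came from GENCODE 29, since the RefSeq lengths first planned were not used here, and promoters from RefSeq (GRCh38.p14), matched by symbol; no coordinate was carried over to hg19.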

Additional observations from a re-analysis of the deposited data

Results flagged for a closer look

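The guide effect of 11 named members differed between the 3 lines by the limma F test. The adjusted p was 7.3e-05 for MRPL42, 0.000147 for MRPL41, 0.000438 for MRPL49, 0.00299 for MRPL12 and 0.00352 for MRPS11, whose values by line are given above. It was 0.00401 for MRPS35, at -0.87 in HpbALL, -0.63 in KOPTK1 and -0.68 in CUTLL1. It was 0.00449 for MRPL3, at -1.26 in HpbALL, -0.96 in KOPTK1 and -1.06 in CUTLL1. It was 0.00495 for MRPL34, at -1.18 in HpbALL, -0.90 in KOPTK1 and -0.84 in CUTLL1. MRPL15 had 0.014, at -1.18 in HpbALL, -0.87 in KOPTK1 and -1.02 in CUTLL1, and MRPL24 had 0.0259. In these 5 the fall was largest in HpbALL. MRPL51 had 0.00911, at 0.04 in HpbALL, -0.19 in KOPTK1 and -0.33 in CUTLL1. HpbALL is the line with 2 guide controls, whereas KOPTK1 and CUTLL1 have 1 each, and the part of this in the differences was not tested.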

How the results depend on the processing

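Counts of members that rose or fell stayed within 1.5 times their main value under every setting but 1. The exception was chosen after seeing the data: averaging libraries by line and arm left 5 members higher in place of 10 in the joint comparison, and 41 lower in place of 56, on fewer samples. Leaving out each library gave 9 to 10 higher and 54 to 56 lower in the joint comparison, 8 to 9 and 51 to 53 with guides, 7 to 9 and 47 to 52 with ASOs, 18 to 25 called between lines, 66 to 71 between controls and 0 for guide minus ASO. Without a lone control the tests over lines or deliveries gave no value.

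Quantile scaling moved the joint median of all genes from -0.03 to 0.07 and that of members from -0.26 to -0.22. The lower share of all calls went to 43.5%, against 51.7% as deposited, and members called were 11 higher and 53 lower. Replicate numbers gave no sign of pairing: deviations of same-numbered libraries correlated between groups by -0.01 to 0.07. Only in HpbALL could targeted and control libraries of an experiment be set against each other this way (-0.0056). Low values do not show that the libraries were unpaired. With the number as a replicate block, 10 members rose and 56 fell in the joint comparison, 9 and 52 with guides and 7 and 45 with ASOs.

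Among the named members, signs turned for those near 0. MRPL49 in the joint comparison was at 0.03 with the block, 0.01 by edgeR, 0.00 by DESeq2 and 0.02 averaged. With ASOs, MRPS11 was at 0.02 with quantile scaling and 0.01 by DESeq2, MRPS21 at 0.04 with quantile scaling and 0.02 with the block, and MRPL53 at 0.33 with quantile scaling. With a library left out, MRPL49 ran from -0.03 to 0.05 (joint), -0.01 to 0.13 (guides) and -0.14 to 0.01 (ASOs), and MRPS11 from -0.02 to 0.05, -0.01 to 0.12 and -0.11 to 0.05. With ASOs MRPS21 ran from -0.07 to 0.03, MRPS25 from -0.11 to 0.02 and MRPL53 from -0.09 to 0.06. The joint call of MRPL42 was lost in 12 of 16 fits with a library left out (adjusted p up to 0.0998). It was also lost with no filter (0.0729) and when counted once per line and arm (0.221). The causes were not tested. Low counts limit what can be said of MRPS24, MRPL53, MRPL38 and the 3 entries too low to test.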
